A study of Homo sapiens with 6 samples.

Results

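Long intergenic noncoding RNAs (lincRNAs) are transcripts with no known protein product whose genes lie apart from protein-coding genes. The RNAs described here are the well-expressed lincRNAs of LS174T cells. They were chosen from the deposited count table as rows annotated as lincRNA, on chromosomes 1 to 22, with a sum of at least 500 counts over all libraries, leaving out H19, MEG3 and MEG8. The rule took 134 of 7446 lincRNA rows on these chromosomes, in a table of 58967 rows. It used the summed level, so levels are given as a description. It did not use the difference between groups, and that difference was tested.

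LS174T is an established human colorectal adenocarcinoma line, labelled as resembling goblet cells, the mucus-secreting cells of the gut. Polyadenylated RNA was sequenced in 3 libraries whose genotype label is knockout of FXYD3 and in 3 libraries labelled wild type (WT). FXYD3 is a small membrane protein that modulates the sodium pump. No treatment or time is given for either group. How the gene was edited, how many clones were used, or whether replicate libraries stem from separate cultures, is not stated in the labels. The p-values therefore cover the spread among these 6 libraries alone, and that spread may be technical.

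FXYD3 had 79, 131 and 85 counts in the knockout-labelled libraries, against 54, 91 and 55 counts in WT. The level was 5.62 ± 0.934 CPM (read counts relative to library size after TMM scaling) in the knockout-labelled libraries and 3.88 ± 1.07 CPM in WT (SD, n = 3 each). The log2 fold change, knockout-labelled over WT, was 0.54 (SE 0.20, edgeR adjusted p = 0.0522, and 0.00313 without WT library 2). The knockout-labelled libraries thus did not have less FXYD3 transcript, and the groups are called by their labels throughout. An edit that spares the transcript would not be visible in counts over the whole gene.

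Many lincRNAs stay in the nucleus, where some build or occupy nuclear bodies. Others work in the cytoplasm by binding proteins, and others are host transcripts, whose introns or exons hold small nucleolar RNAs (snoRNAs, guides for chemical modification of other RNAs) or microRNAs (short RNAs that repress messenger RNAs through a seed near their 5′ end). A lincRNA gene often starts close to a coding gene on the opposite strand, from a shared promoter region. Several lincRNAs are known from colorectal tumours or as transcriptional targets of p53.

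Libraries held 15417232 to 19453217 counts in named genes in the knockout-labelled group and 16507805 to 17596549 in WT. Across genes, log2 CPM of libraries within a group correlated at 0.989 to 0.992 and between groups at 0.962 to 0.967. The colon markers EPCAM, KRT18 and CDX2 were present in both groups. Of the 12 tested colon and goblet markers, 5 were lower in the knockout-labelled libraries (MUC5AC, MUC2, CDX1, TFF3 and SPDEF) and 0 higher. That is 41.7% lower, against 12.4% of all tested genes. Log2 fold changes of the 12 ran from -3.30 to 0.14, with a median of -0.19. Their summed level was 3376 to 3664 CPM in the knockout-labelled libraries and 3615 to 3941 CPM in WT. Of 10 markers of blood, vessel and stroma, 3 were high enough to test (LYZ, ACTA2 and COL3A1, of which COL3A1 was higher, with a log2 fold change of 4.14). The summed level of the 10 was 40.2 to 44.9 CPM in the knockout-labelled libraries and 34.4 to 36.9 CPM in WT, and PTPRC, CD3E and PECAM1 were at 0 counts. The part of these marker changes in the lincRNA results was not tested. In bulk RNA, fewer cells of a type and less RNA per cell cannot be told apart.

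Of the 134 lincRNAs, the knockout-labelled libraries had 33 higher and 15 lower, and 86 did not pass (edgeR quasi-likelihood test, Benjamini-Hochberg adjusted p below 0.05 over all 15351 tested genes). That is 35.8% of the lincRNAs, against 24.3% of all tested genes. The share called higher was 24.6%, against 12.0% of all tested genes, and the share called lower was 11.2%, against 12.4%. The median log2 fold change was 0.14 over the 134 lincRNAs and 0.00 over all tested genes. Calls of 1 log2 unit or more comprised 6 higher and 3 lower lincRNAs, and 6.10% of all tested genes reached that size in either direction. The values of the groups did not overlap for 63 of the lincRNAs (47.0%), against 37.2% of all tested genes, and 45 of these 63 were called.

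A lincRNA that reached 500 counts mainly through 1 group is likely to differ through that choice. Counted apart, 18 of the 134 had under 250 counts in 1 group, and 12 of them were called. The 6 higher were SNHG18, FAM230C, LINC01694, LINC01133, AP000350.6 and PCAT14, and the 6 lower were LINC02418, LINC00346, AC026401.3, LINC01315, LINC01569 and LINC00920. Their differences were favoured by the limit itself, so those given below are descriptions. Among the 116 with at least 250 counts in each group, 27 were higher and 9 lower, which is 31.0%. Just inside the limit stood AC007342.4 with 501 counts, OSER1-DT with 504 and LINC00346 with 505. Just outside stood AC006449.6 with 489 counts, AC139749.1 with 487 and LINC00623 with 485. Reads of overlapping genes on opposite strands cannot be told apart, because the counter's strand setting is not given in the sources used here. Exons of 47 of the lincRNAs overlap another gene, and 20 of these were called, 16 higher and 4 lower (42.6% called, 34.0% higher). Of the 87 with no such overlap, 17 were higher and 11 lower (32.2% called, 19.5% higher). Of all tested genes 24.3% were called and 12.0% were higher. The share of rises was thus larger among lincRNAs with exon overlap. How reads in shared bases were assigned is not stated in the sources used here, and their part in the rises was not tested.

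Other transcript classes on the same chromosomes with at least 500 counts gave the following shares, which were set side by side with no test. Of 10154 protein-coding genes 1220 were higher and 1453 lower (26.3% called, 12.0% higher), with a median log2 fold change of -0.02. Of 128 antisense RNAs 28 were higher and 3 lower (24.2% called, 21.9% higher), with a median of 0.13. Of 49 processed transcripts 13 were higher and 3 lower (32.7% called, 26.5% higher), with a median of 0.16. The share higher in these 2 noncoding classes was thus near the 24.6% of the lincRNAs.

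**Figure D1:**
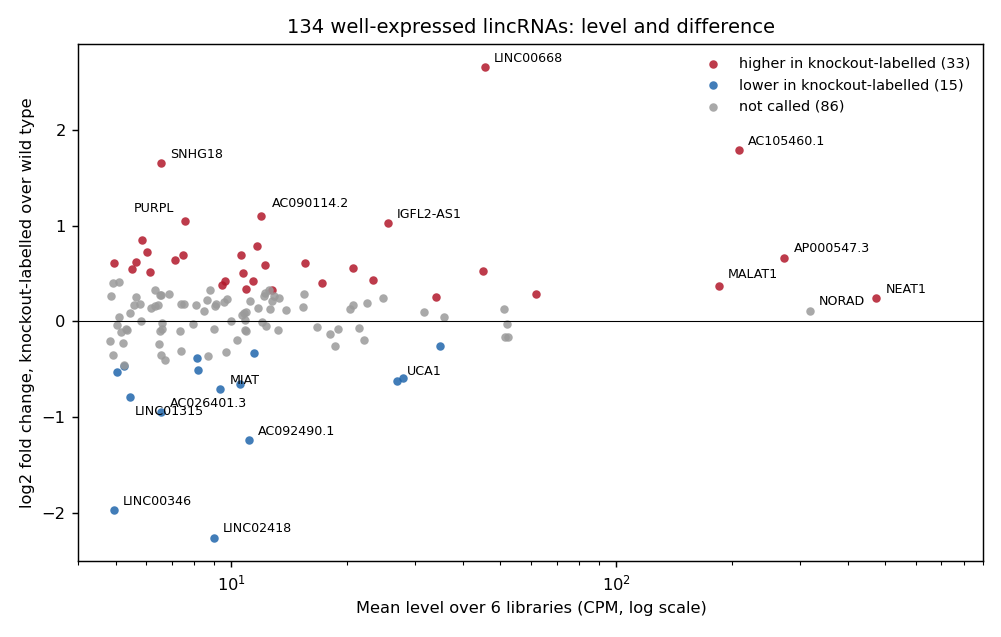
Each point is 1 of the 134 lincRNAs, with its mean level in CPM on a logarithmic horizontal axis and its log2 fold change, knockout-labelled over WT, on the vertical axis. Red points (33) were called higher, blue points (15) lower, and grey points (86) did not pass. Levels ran from 4.82 to 474 CPM, and calls lie at low, middle and high levels. Most calls at the low levels are of lincRNAs with under 250 counts in 1 group, whose differences the count limit favoured.

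Levels were uneven. The mean level over all libraries ran from 4.82 to 474 CPM with a median of 9.86 CPM, and 129 of the 134 were under 100 CPM. Together the lincRNAs took 0.340, 0.360 and 0.360% of the counts of the knockout-labelled libraries, against 0.277, 0.294 and 0.272% in WT. Every knockout-labelled library was above every WT library. Without NEAT1, the most abundant of them, the mean share was 0.301% in the knockout-labelled group and 0.238% in WT. The 5 most abundant lincRNAs made up 47.3 to 49.6% of the lincRNA counts in the knockout-labelled libraries and 41.1 to 44.4% in WT. Those 5 are NEAT1, NORAD, AP000547.3, AC105460.1 and MALAT1. Among them AC105460.1 (log2 fold change 1.79) and AP000547.3 (0.67) rose more than NEAT1 (0.24), and the share without those was not computed. Per kilobase of gene length, which allows genes to be compared, the leading 5 were AC105460.1 (252 CPM per kilobase over all libraries), SNHG19 (105), AP000547.3 (89.1), NORAD (59.6) and SNHG8 (55.4), against a median of 3.52.

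Calls were made at all levels. Of the 45 least abundant lincRNAs 8 were higher and 5 lower, of the 44 in the middle 10 were higher and 7 lower, and of the 45 most abundant 15 were higher and 3 lower. Of all tested genes, at any level, 12.0% were higher and 12.4% lower. The coefficient of variation between libraries of a group had a median of 10.1% in the knockout-labelled group and 8.76% in WT. The most variable were AL035071.1 in the knockout-labelled group (29.7%) and LINC01547 in WT (34.1%).

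Among nuclear and architectural RNAs the 4 lincRNAs gave 2 rises and 1 fall. The whole list of such RNAs, of any class, had 6 tested genes, of which 4 were higher and 1 lower (83.3% called, against 24.3% of all tested genes), with a median log2 fold change of 0.24. Without knockout-labelled library 3, WT library 1 or WT library 3, 2 of the list were higher. MALAT1, a nuclear RNA of splicing speckles (chr11:65497688-65506516, plus strand), had 195, 217 and 213 CPM in the knockout-labelled libraries, against 162, 177 and 143 CPM in WT. All 3 knockout-labelled values were above all 3 WT values, and the log2 fold change was 0.38 (SE 0.07, edgeR adjusted p = 0.000191). NEAT1, the scaffold of paraspeckles and also a p53 target (chr11:65422774-65445540, plus strand), had 454, 548 and 539 CPM in the knockout-labelled libraries, against 430, 469 and 404 CPM in WT. The groups overlap, since knockout-labelled library 1 lies below WT library 2. Its log2 fold change was 0.24 (SE 0.07, edgeR adjusted p = 0.0138), and the call was lost without knockout-labelled library 2 or 3 or without WT library 1 or 3 (adjusted p 0.0612 to 0.0996).

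MIAT, a nuclear RNA first described at a myocardial infarction locus (chr22:26646428-26676475, plus strand), fell. It had 6.92, 5.78 and 8.70 CPM in the knockout-labelled libraries, against 12.0, 12.2 and 10.6 CPM in WT. The groups did not overlap, and the log2 fold change was -0.71 (SE 0.14, edgeR adjusted p = 0.000543). Other annotated genes, among them MIATNB on the same strand and Z99774.1 on the opposite strand, share 25.6% of its exon bases.

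NORAD is a cytoplasmic RNA that binds proteins through repeated copies of a short element. The element was searched as TGTANATA on the transcript strand of the longest GENCODE transcript of each lincRNA. NORAD (chr20:36045622-36050960, minus strand) has 15 matches, 2.81 per kilobase, NEAT1 has the next highest number, 6, and 108 of the 134 lincRNAs have none. A match is a description and not a shown binding site. Shown are 4 of the 15 stretches, with the matched element in capitals and its neighbouring bases in lower case.
NORAD bases 761 to 768: ggaaggcctgTGTATATAatatgaaaaa
NORAD bases 1140 to 1147: ctcactactgTGTATATAgttgacaatg
NORAD bases 1825 to 1832: aataccacttTGTAAATAtctttttgct
NORAD bases 2972 to 2979: aaccctactgTGTATATAgcggacaaac

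NORAD had 326, 326 and 341 CPM in the knockout-labelled libraries, against 301, 325 and 291 CPM in WT. The groups did not overlap, but by a small margin, and the log2 fold change of 0.11 (SE 0.06, 95% interval -0.00 to 0.23) did not pass (edgeR adjusted p = 0.159). Without WT library 2 it did (adjusted p = 0.0308).

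By coordinates 7 of the lincRNAs hold a snoRNA, and 6 of them, SNHG18, SNHG4, EPB41L4A-AS1, SNHG8, SNHG19 and SNHG15, are in the list of snoRNA hosts. SNHG18, SNHG4 and EPB41L4A-AS1 rose. The seventh, LINC02001, which holds SNORD7, averaged 13.7 ± 1.04 CPM in the knockout-labelled libraries and 11.8 ± 0.480 CPM in WT (edgeR adjusted p = 0.175). In the whole list of 25 tested snoRNA hosts 5 were higher and 0 lower (5 of 25, a smaller share than the 24.3% of all tested genes), with a median log2 fold change of 0.12. Without knockout-labelled library 1 or 2 or WT library 1 or 2, 3 were higher. DESeq2 and limma voom also called 0 lower, and 1 had an unadjusted edgeR p below 0.05 in that direction. The counts are those of the host transcript and say nothing of the mature snoRNAs.

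SNHG18, host of SNORD123 (chr5:9546200-9550609, plus strand), had 10.7, 9.87 and 9.35 CPM in the knockout-labelled libraries, against 3.12, 3.26 and 3.10 CPM in WT. The groups stood far apart, with a log2 fold change of 1.65 (SE 0.16). It reached the 500-count limit through the knockout-labelled group, with 515 counts there and 162 in WT. SNHG4, host of SNORA74A (chr5:139274102-139284899, plus strand), had 56.3, 51.9 and 51.3 CPM in the knockout-labelled libraries, against 37.3, 41.2 and 31.8 CPM in WT. The groups did not overlap, with a log2 fold change of 0.53 (SE 0.09, edgeR adjusted p = 2.8e-05), and 16.6% of its exon bases are shared with MATR3 on the same strand or SIL1 on the opposite strand. EPB41L4A-AS1, host of SNORA13, averaged 37.0 ± 1.72 CPM in the knockout-labelled libraries and 31.1 ± 4.59 CPM in WT, and the groups overlap. Its edgeR adjusted p was 0.0457, the call was lost without any 1 library other than WT library 3 (adjusted p 0.0604 to 0.226), and 49.6% of its exon bases are shared with EPB41L4A on the opposite strand.

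The other 3 hosts did not pass. SNHG8, host of SNORA24, averaged 53.3 ± 0.795 CPM in the knockout-labelled libraries and 48.9 ± 7.01 CPM in WT (edgeR adjusted p = 0.319). SNHG15, host of SNORA9, averaged 48.5 ± 3.11 CPM in the knockout-labelled libraries and 54.4 ± 2.51 CPM in WT (edgeR adjusted p = 0.11), with no overlap. SNHG19, host of SNORD60, had 37.7, 36.6 and 34.4 CPM in the knockout-labelled libraries, against 33.4, 25.0 and 47.3 CPM in WT. Its WT libraries spread on both sides of the knockout-labelled ones. The edgeR adjusted p was 0.923, and 0.0237 without WT library 3.

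By coordinates 8 of the lincRNAs hold a mature microRNA. Shown for 7 of them are the better-known microRNAs, 1 arm each, with the seed, bases 2 to 8, in capitals, to compare seeds between hosts. They are mature sequences from RefSeq, placed on GRCh38.p14.
hsa-let-7a-5p: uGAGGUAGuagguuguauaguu
hsa-let-7b-5p: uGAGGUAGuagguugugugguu
hsa-miR-4458: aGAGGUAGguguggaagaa
hsa-miR-34a-5p: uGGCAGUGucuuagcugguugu
hsa-miR-22-3p: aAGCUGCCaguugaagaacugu
hsa-miR-192-5p: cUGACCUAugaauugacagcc
hsa-miR-194-5p: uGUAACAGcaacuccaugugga
hsa-miR-4435: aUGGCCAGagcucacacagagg

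The let-7 microRNAs of MIRLET7BHG and miR-4458 of MIR4458HG share the seed GAGGUAG, and miR-4435 lies in both MIR4435-2HG and CYTOR. Host counts do not measure the mature microRNA. Of the 6 lincRNAs in the list of microRNA hosts, MIR34AHG was called higher. Outside that list MUC20-OT1, which holds miR-570, was also called higher. It averaged 26.8 ± 1.11 CPM in the knockout-labelled libraries and 19.8 ± 0.506 CPM in WT, with a log2 fold change of 0.44 (SE 0.09, edgeR adjusted p = 0.000535), and 24.1% of its exon bases are shared with MUC20 and other genes on the same strand. In the whole list 17 hosts were tested, of which 3 were higher and 0 lower (17.6% called, against 24.3% of all tested genes), with a median log2 fold change of 0.13. Without WT library 2 they were 4 and 1, and 2 were higher without knockout-labelled library 1 or 2 or WT library 1. DESeq2 and limma voom called 0 lower, and 2 had an unadjusted edgeR p below 0.05 in that direction.

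MIR34AHG, the host of miR-34a and a p53 target (chr1:9148011-9198906, minus strand), had 14.5, 14.8 and 14.7 CPM in the knockout-labelled libraries, against 9.14, 10.6 and 9.50 CPM in WT. The groups did not overlap, with a log2 fold change of 0.59 (SE 0.12, edgeR adjusted p = 0.000335), and LNCTAM34A overlaps it on the opposite strand. MIR4458HG averaged 5.63 ± 0.398 CPM in the knockout-labelled libraries and 4.23 ± 0.867 CPM in WT (edgeR adjusted p = 0.118, and 0.0421 without WT library 2). MIRLET7BHG averaged 13.2 ± 1.54 CPM in the knockout-labelled libraries and 12.0 ± 1.34 CPM in WT (edgeR adjusted p = 0.487).

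MIR194-2HG, whose microRNAs are abundant in gut epithelium, averaged 8.61 ± 1.04 CPM in the knockout-labelled libraries and 10.7 ± 1.86 CPM in WT (edgeR adjusted p = 0.111). MIR22HG averaged 10.5 ± 0.532 CPM in the knockout-labelled libraries and 11.1 ± 0.865 CPM in WT (edgeR adjusted p = 0.666). MIR4435-2HG averaged 10.9 ± 1.34 CPM in the knockout-labelled libraries and 10.8 ± 0.888 CPM in WT, with a 95% interval of the log2 fold change of -0.25 to 0.27. These 3 hosts had overlapping groups.

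Among RNAs reported in colorectal cancer the 8 lincRNAs gave 1 rise, LINC01133, and 1 fall, UCA1. The whole list had 20 tested genes, 4 higher and 4 lower (40.0% called, against 24.3% of all tested genes), with a median log2 fold change of 0.10, and 2 were higher without knockout-labelled library 1. UCA1, a lincRNA first described in urothelial cancer (chr19:15828206-15836326, plus strand), had 22.1, 19 and 22.8 CPM in the knockout-labelled libraries, against 31.9, 33.7 and 32.5 CPM in WT. The groups stood well apart, with a log2 fold change of -0.62 (SE 0.09, edgeR adjusted p = 5.73e-06), and LINC01764 overlaps it on the opposite strand, sharing part of 13.6% of its exon bases. LINC01133 (chr1:159961218-159984750, plus strand) had 7.69, 7.21 and 5.60 CPM in the knockout-labelled libraries, against 4.80, 4.27 and 4.22 CPM in WT. The groups did not overlap, with a log2 fold change of 0.62 (SE 0.17). LINC01133 had under 250 counts in WT, so this difference is a description. Its call was lost without knockout-labelled library 1 (edgeR adjusted p = 0.0557).

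The other lincRNAs of that list among the 134 did not pass. PVT1, a lincRNA next to the MYC oncogene, averaged 12.0 ± 1.40 CPM in the knockout-labelled libraries and 12.5 ± 1.19 CPM in WT, with a 95% interval of the log2 fold change of -0.30 to 0.20. CYTOR, a cytoplasmic RNA, averaged 7.12 ± 0.882 CPM in the knockout-labelled libraries and 7.62 ± 0.758 CPM in WT (edgeR adjusted p = 0.689). LINC01234, LINC01559 and ELFN1-AS1 had log2 fold changes of 0.09, 0.11 and 0.23, with edgeR adjusted p of 0.657, 0.633 and 0.29.

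Of the 5 lincRNAs in the list of p53-linked RNAs, PURPL, MIR34AHG and NEAT1 were higher. The whole list had 7 tested genes, 3 higher and 0 lower (42.9% called, against 24.3% of all tested genes), with a median log2 fold change of 0.24. DESeq2 and limma voom called 0 lower, and 0 had an unadjusted edgeR p below 0.05 in that direction. PURPL, a p53-induced RNA (chr5:27472292-27496401, plus strand), had 9.76, 9.52 and 11.4 CPM in the knockout-labelled libraries, against 3.99, 6.52 and 4.22 CPM in WT. All knockout-labelled values were above all WT values, with a log2 fold change of 1.05 (SE 0.17, edgeR adjusted p = 2.9e-05). TP53TG1, a p53 target gene, averaged 7.17 ± 0.142 CPM in the knockout-labelled libraries and 5.91 ± 1.09 CPM in WT (edgeR adjusted p = 0.221).

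**Figure D2:**
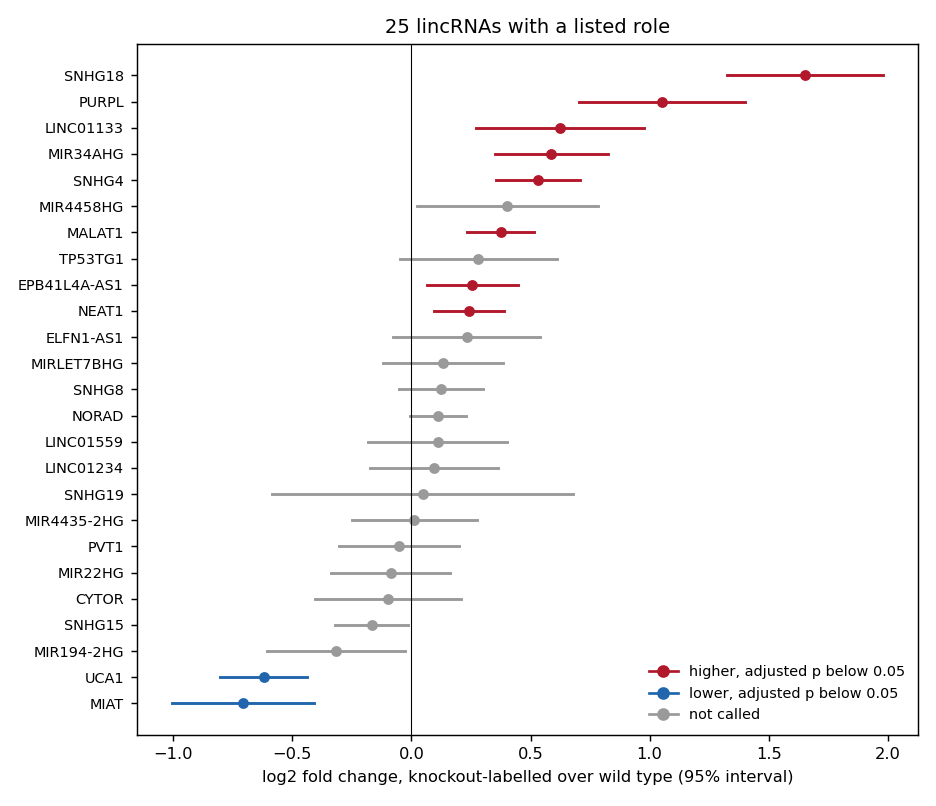
Each row is 1 of the 25 lincRNAs that belong to a role list, with its log2 fold change, knockout-labelled over WT, as a point and its 95% interval as a bar, and 4 lincRNAs stand in 2 lists each. Of the 25, 8 were higher and 2 lower (40% called, against 24.3% of all tested genes). SNHG18 (1.65) and PURPL (1.05) stand farthest to the right and MIAT (-0.71) farthest to the left. SNHG18 and LINC01133, both among the higher, had under 250 counts in WT. Their differences were favoured by the count limit and are descriptions.

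The lincRNAs with the largest rises mostly had no entry in a role list. LINC00668 (ENSG00000265933; chr18:6919496-6929966, minus strand) had 78.9, 81.9 and 74.9 CPM in the knockout-labelled libraries, against 13.3, 12.5 and 11.6 CPM in WT. The groups stood far apart, with a log2 fold change of 2.65 (SE 0.08, edgeR adjusted p = 5.28e-19). The pseudogene SCML2P1 overlaps 12.2% of its exon bases on the opposite strand. AC105460.1 (ENSG00000250920; chr4:103550927-103559127, minus strand), a clone-based name with no known role, had 315, 320 and 337 CPM in the knockout-labelled libraries, against 88.4, 96.6 and 96.1 CPM in WT. AC105460.2 on the opposite strand shares 6.02% of its exon bases. Its groups were as clearly apart, with a log2 fold change of 1.79 (SE 0.06, edgeR adjusted p = 1.01e-18). Per kilobase its level was 390 CPM in the knockout-labelled group and 113 CPM in WT, the highest of the lincRNAs in each group.

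AC090114.2 (chr7:128524016-128531069, minus strand) had 14.5, 16.0 and 18.2 CPM in the knockout-labelled libraries, against 7.81, 7.14 and 7.82 CPM in WT. It rose by 1.10 on the log2 scale (SE 0.12, edgeR adjusted p = 8.37e-08). IGFL2-AS1 (chr19:46189166-46203083, minus strand) had 33.0, 35.7 and 33.8 CPM in the knockout-labelled libraries, against 15.9, 15.3 and 19.2 CPM in WT. It rose by 1.03 (SE 0.10, edgeR adjusted p = 2.52e-09), and its lowest knockout-labelled value lay well above its highest WT value. AP000547.3 (chr22:16601911-16615111, plus strand), one of the 5 most abundant, had 312, 358 and 336 CPM in the knockout-labelled libraries, against 200, 224 and 211 CPM in WT. It rose by 0.67 (SE 0.06, edgeR adjusted p = 1.97e-09), and TPTEP1 on the same strand shares 20.9% of its exon bases.

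The remaining rises among the 10 largest were of 0.70 to 0.85 log2 units. FAM230C averaged 7.50 ± 1.5 CPM in the knockout-labelled libraries and 4.19 ± 0.548 CPM in WT (log2 fold change 0.85). AC083843.2 averaged 14.7 ± 1.45 CPM in the knockout-labelled libraries and 8.50 ± 0.694 CPM in WT (0.79). LINC01694 averaged 7.51 ± 0.949 CPM in the knockout-labelled libraries and 4.54 ± 0.327 CPM in WT (0.72). LINC00960, which ZNF717 overlaps on the opposite strand, averaged 9.23 ± 0.481 CPM in the knockout-labelled libraries and 5.70 ± 1.01 CPM in WT (0.70). None of these 4 had overlapping groups. For AC083843.2 and LINC00960 the edgeR adjusted p was 1.83e-05 and 0.00100. FAM230C and LINC01694 had under 250 counts in WT, so their differences are descriptions.

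LINC02418 (ENSG00000214039; chr12:130033454-130045057, minus strand) had the largest fall. It had 2.91, 2.92 and 3.52 CPM in the knockout-labelled libraries, against 16.1, 14.3 and 14.2 CPM in WT. The groups stood far apart, with a log2 fold change of -2.26 (SE 0.15). It reached the 500-count limit through WT, with 161 counts in the knockout-labelled group and 763 in WT, and AC055717.2 on the same strand shares 6.84% of its exon bases. LINC00346 (ENSG00000255874; chr13:110863987-110870251, minus strand) had 2.65, 1.74 and 1.67 CPM in the knockout-labelled libraries, against 6.54, 8.04 and 9.07 CPM in WT. Its log2 fold change was -1.97 (SE 0.21). With 103 counts in the knockout-labelled group and 402 in WT, it reached the limit through WT. AC092490.1 (chr12:8788257-8795789, plus strand) had 7.37, 5.12 and 7.39 CPM in the knockout-labelled libraries, against 15.4, 16.5 and 14.7 CPM in WT. Its groups did not overlap, with a log2 fold change of -1.24 (SE 0.14, edgeR adjusted p = 6.27e-08).

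The other falls were of less than 1 log2 unit. AC026401.3 averaged 4.48 ± 0.495 CPM in the knockout-labelled libraries and 8.61 ± 0.788 CPM in WT (log2 fold change -0.95). LINC01315 averaged 3.98 ± 0.476 CPM in the knockout-labelled libraries and 6.88 ± 1.29 CPM in WT (-0.79). LINC02432 averaged 8.16 ± 0.905 CPM in the knockout-labelled libraries and 12.9 ± 0.796 CPM in WT (-0.66). AL390719.2 averaged 22.2 ± 3.06 CPM in the knockout-labelled libraries and 33.5 ± 3.73 CPM in WT (-0.59). In these 4 the groups did not overlap. For LINC02432 and AL390719.2 the edgeR adjusted p was 0.000265 and 9.05e-05. AC026401.3 and LINC01315 had under 250 counts in the knockout-labelled group, so their differences are descriptions. LINC01569 averaged 4.10 ± 0.541 CPM in the knockout-labelled libraries and 5.96 ± 0.706 CPM in WT (-0.53). It too had under 250 counts in the knockout-labelled group, so this difference is a description. Its call was lost with DESeq2 (adjusted p 0.0595). In edgeR it was lost without knockout-labelled library 1 or 3 or WT library 1 or 3 (adjusted p 0.0576 to 0.138).

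**Figure D3:**
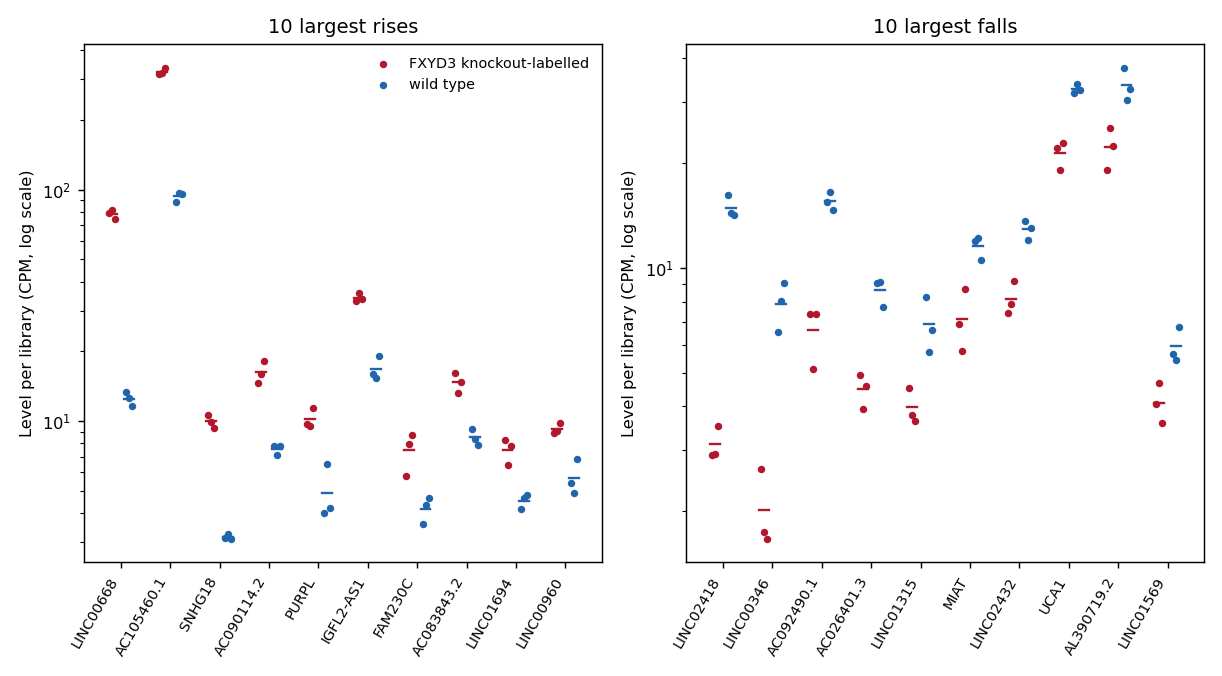
Points are CPM of single libraries on a logarithmic axis, with bars at the group means, for the 10 largest rises (left panel) and the 10 largest falls (right panel) among called lincRNAs whose groups do not overlap, knockout-labelled left of WT. LINC00668 stands at 74.9 to 81.9 CPM in the knockout-labelled libraries and 11.6 to 13.3 CPM in WT, and LINC02418 at 2.91 to 3.52 CPM in the knockout-labelled libraries and 14.2 to 16.1 CPM in WT.

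The 92 lincRNAs not named by the rule for named genes held 16 rises of 0.28 to 0.69 on the log2 scale, 5 falls of -0.51 to -0.25 and 71 that did not pass. Over the 86 lincRNAs not called, log2 fold changes lay between -0.45 and 0.41. The 95% interval of all 86 stayed within -1 and 1, and that of 67 stayed within a 1.5-fold change, so at this depth larger differences were not seen in those RNAs. Of the 48 called, 15 had an absolute log2 fold change under 0.5.

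Promoter windows of 300 bases (250 before to 50 after the RefSeq start, GRCh38.p14) were matched for 57 of the lincRNAs, and 52 of these starts lie within 1000 bases of the deposited start. Shown are the largest rise (LINC00668, chr18:6929820-6930119, minus strand), the rise with a coding gene head to head (SNHG18, chr5:9545950-9546249, plus strand), the p53-induced PURPL (chr5:27472042-27472341, plus strand) and a fall (LINC01315, chr22:42369159-42369458, minus strand). Capitals mark matches, on either strand, of the TATA box TATAAA, the E-box motif CACGTG, the cyclic AMP response motif TGACGTCA, the CCAAT box and the GC box core GGGCGG, and touching matches run together.
LINC00668: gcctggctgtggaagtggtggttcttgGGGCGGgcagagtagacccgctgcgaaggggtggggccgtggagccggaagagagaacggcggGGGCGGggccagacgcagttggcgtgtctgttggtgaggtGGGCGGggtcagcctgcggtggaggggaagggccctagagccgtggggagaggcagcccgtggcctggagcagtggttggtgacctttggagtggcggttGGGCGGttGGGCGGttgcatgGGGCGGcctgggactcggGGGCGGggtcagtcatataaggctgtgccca
SNHG18: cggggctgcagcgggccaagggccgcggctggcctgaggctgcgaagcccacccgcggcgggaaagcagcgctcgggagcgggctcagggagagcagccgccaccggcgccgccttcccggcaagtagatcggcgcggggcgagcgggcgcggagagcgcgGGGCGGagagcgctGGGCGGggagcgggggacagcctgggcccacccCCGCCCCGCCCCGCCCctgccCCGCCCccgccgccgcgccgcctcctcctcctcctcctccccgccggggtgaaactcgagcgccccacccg
PURPL: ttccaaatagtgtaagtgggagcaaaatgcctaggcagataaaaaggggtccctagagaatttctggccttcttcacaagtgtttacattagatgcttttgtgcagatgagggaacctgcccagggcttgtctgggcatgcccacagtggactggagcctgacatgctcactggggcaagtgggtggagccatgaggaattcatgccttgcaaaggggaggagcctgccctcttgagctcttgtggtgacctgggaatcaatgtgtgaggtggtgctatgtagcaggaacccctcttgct
LINC01315: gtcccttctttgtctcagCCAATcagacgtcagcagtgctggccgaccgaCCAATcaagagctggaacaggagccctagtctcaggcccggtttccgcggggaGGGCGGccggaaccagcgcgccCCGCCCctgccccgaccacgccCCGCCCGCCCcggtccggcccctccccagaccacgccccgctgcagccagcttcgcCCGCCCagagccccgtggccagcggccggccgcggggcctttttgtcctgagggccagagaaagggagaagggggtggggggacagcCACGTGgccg

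The SNHG18 window is 81.3% G or C and holds 43 CpG dinucleotides, and that of LINC00668 is 69.3% with 20. The LINC01315 window is 72.7% with 28 CpG. The PURPL window differs from these, with 52.0% and 0 CpG, and none of the 5 motifs occurs in it. Over the 52 lincRNA windows the median was 65.8% G or C with 23 CpG, against 58.7% and 14 CpG in all 35116 RefSeq promoters. GGGCGG, the core of the GC box, occurs in 63.5% of the lincRNA windows and 45.0% of all promoters, and CCAAT in 40.4% and 34.6%. TATAAA occurs in 3.85% of the lincRNA windows and 11.5% of all promoters, CACGTG in 7.69% and 7.26%, and TGACGTCA in 1.92% and 1.85%. The windows of the 13 lincRNAs called higher had a median of 62.7% G or C, those of the 5 called lower 56.3%, and those of the 34 not called 66.8%.

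A protein-coding gene lies within 50000 bases of 112 of the 134 lincRNAs, and for 86 of them that nearest gene was tested. Of these 86 lincRNAs 26 were called, and of their nearest coding genes 30 (34.9%), against 24.3% of all tested genes. Both partners were called in 9 pairs, 7 of them higher in both and 2 in opposite directions. The nearest gene was thus called for 34.6% of the called lincRNAs, near the 34.9% over all 86 pairs. Over the 86 pairs the log2 fold changes correlated at Pearson's r = 0.37 and Spearman's rho = 0.22, as a description, since pairs share libraries and may in places share reads. Over the 57 of these pairs that are not head to head, Pearson's r was 0.22 and Spearman's rho 0.21. In 29 tested pairs the partners lie head to head, on opposite strands with starts at most 1000 bases apart. In these pairs 3 lincRNAs were called, and both partners were called in 2 pairs.

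SNHG18 and SEMA5A, a semaphorin of axon guidance, lie head to head with starts 125 bases apart. SEMA5A had 14.6, 15.7 and 16.3 CPM in the knockout-labelled libraries, against 2.66, 3.32 and 2.73 CPM in WT. The groups stood far apart, with a log2 fold change of 2.41 (SE 0.15, edgeR adjusted p = 5.42e-13), beside 1.65 for SNHG18, itself admitted through its knockout-labelled counts. IGFL1, a member of the IGF-like family 26669 bases from IGFL2-AS1 on the opposite strand, had 14.2, 12.2 and 12.3 CPM in the knockout-labelled libraries, against 4.05, 2.19 and 3.17 CPM in WT. Its log2 fold change was 2.04 (SE 0.17, edgeR adjusted p = 5.37e-10), with no overlap, beside 1.03 for IGFL2-AS1. FRMD8, 9249 bases from NEAT1 on the same strand, had 111, 114 and 122 CPM in the knockout-labelled libraries, against 66.7, 70.6 and 67.7 CPM in WT. It rose by 0.76 on the log2 scale (SE 0.06, edgeR adjusted p = 2.79e-10), beside 0.24 for NEAT1.

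The other 4 pairs that rose together did so by less. AP003392.4 and CCDC84, head to head with starts 138 bases apart, had log2 fold changes of 0.38 and 0.39. LINC00847 and ZFP62 had 0.34 and 0.35. AC092171.2 and FBXL18, whose gene bodies overlap, had 0.40 and 0.32, and AP003486.1 and SNX19 had 0.51 and 0.19. Each of these 4 pairs lost a call on leaving out single libraries. AP003392.4 did so without knockout-labelled library 2 or 3 or WT library 1 or 3 (edgeR adjusted p 0.0975 to 0.105), and LINC00847 without any 1 library other than WT library 2 (0.0521 to 0.242). AC092171.2 did so without knockout-labelled library 2 or 3 (0.0549 to 0.122), and FBXL18 without knockout-labelled library 1 or 3 or WT library 2 (0.0756 to 0.0908). AP003486.1 did so without knockout-labelled library 2 or 3 or WT library 3 (0.0641 to 0.113), and SNX19 without knockout-labelled library 1 or 3 or WT library 1 or 3 (0.0802 to 0.268). Pairs called in the same direction numbered 11 without WT library 2 and 2 to 5 without any other single library.

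LINC00346 and ANKRD10, 8289 bases apart on the same strand, moved in opposite directions. ANKRD10 had 122, 129 and 126 CPM in the knockout-labelled libraries, against 92.7, 106 and 92.5 CPM in WT. Its log2 fold change was 0.37 (edgeR adjusted p = 5.22e-05), beside -1.97 for LINC00346, which reached the 500-count limit through WT. AC060780.1, which overlaps the gene body of BRCA1 on the same strand, had a log2 fold change of 0.33 (edgeR adjusted p = 0.0372) and BRCA1 one of -0.18 (0.0404), and both calls were lost without knockout-labelled library 1 or 2 or WT library 1 or 2 (adjusted p 0.0508 to 0.151), that of BRCA1 also without knockout-labelled library 3 (0.112). Near LINC00668 the nearest coding gene, ARHGAP28, had 0 counts, and TACR3, nearest to AC105460.1, was too low to test. METTL2B near AC090114.2 (log2 fold change -0.13, edgeR adjusted p = 0.242), NDE1 near AC026401.3 (-0.09, 0.503), NFAM1 near LINC01315 (0.09, 0.917), CRYBA4 near MIAT (-0.59, 0.293) and ZNF717 near LINC00960 (0.44, 0.0617) were not called. Without WT library 2, CRYBA4 (0.0431) and ZNF717 (0.0209) passed, and ZNF717 also did without knockout-labelled library 2 (0.0126).

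**Figure D4:**
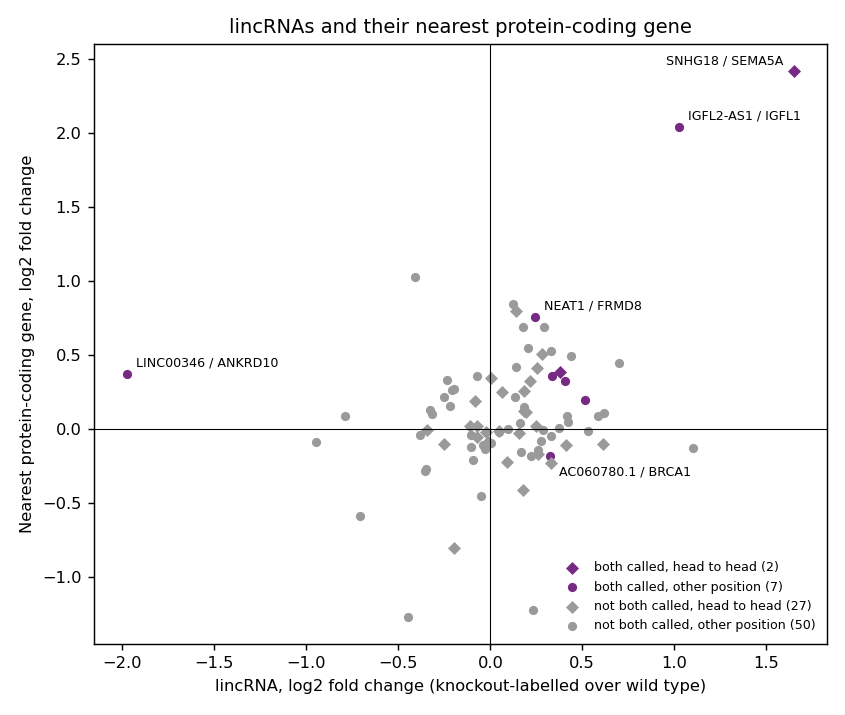
Each point is a lincRNA and its nearest protein-coding gene within 50000 bases, with the log2 fold change, knockout-labelled over WT, of the lincRNA on the horizontal axis and of the coding gene on the vertical axis, and diamonds are head-to-head pairs. Both partners were called in 9 of the 86 pairs, with SNHG18 and SEMA5A farthest up and to the right (1.65 and 2.41) and LINC00346 with ANKRD10 at the left (-1.97 and 0.37).

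Among genes of RNA handling, lists of proteins that bind, process or degrade noncoding RNA, 2 were called higher and 8 lower. Without WT library 2 the counts were 5 and 10, and without any other 1 library 0 to 1 and 3 to 6. By list, the share called ran from 0 to 25%, against 24.3% of all tested genes. Of 16 tested paraspeckle proteins, which assemble on NEAT1, 3 were lower and 0 higher by edgeR (18.8% called, against 24.3% of all tested genes), with a median log2 fold change of -0.10. DESeq2 and limma voom also called 0 higher, and 0 had an unadjusted edgeR p below 0.05 in that direction. NUDT21, a cleavage factor subunit that shapes NEAT1 3′ ends, averaged 160 ± 7.22 CPM in the knockout-labelled libraries and 186 ± 4.0 CPM in WT (-0.22, edgeR adjusted p = 0.00413). TAF15 (-0.20) and RBM14 (-0.20) were the others, and their calls were lost without knockout-labelled library 1 and, for RBM14, also without knockout-labelled library 2 or 3 or WT library 3, and for TAF15 without WT library 1 (adjusted p 0.0733 to 0.245).

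Of 19 tested genes of the nuclear exosome and its adaptors, which degrade nuclear RNA, 3 were lower and 0 higher (15.8% called, against 24.3% of all tested genes), with a median log2 fold change of -0.10. DESeq2 and limma voom called 0 higher, and 1 had an unadjusted edgeR p below 0.05 in that direction. EXOSC8, a subunit of the exosome ring, averaged 41.5 ± 0.242 CPM in the knockout-labelled libraries and 55.3 ± 3.32 CPM in WT (-0.41, edgeR adjusted p = 0.000102). MPHOSPH6 (-0.24) and EXOSC3 (-0.23) were the others, and their calls were lost without any 1 library other than knockout-labelled library 1 for MPHOSPH6 and WT library 2 for EXOSC3 (adjusted p 0.0518 to 0.175). Of 14 genes of the Integrator complex, which cleaves nascent noncoding transcripts, 0 were called by edgeR. Limma voom called 1 lower and DESeq2 0, and 2 had an unadjusted edgeR p below 0.05, 1 in each direction. The median log2 fold change of that list was -0.03.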

How the data were processed

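The authors deposited whole-number counts of reads per gene, not normalized. Per the submitters' processing notes, HISAT2 2.0.5 and featureCounts 1.5.0-p3 were used. The notes list mm10, a mouse build, but the gene identifiers are human, and all 134 lincRNAs have the coordinates of GENCODE 29 on GRCh38. For the annotation, the strand setting and reads with multiple matches, nothing is stated in the sources used here. Per the labels, cells were lysed in TRIzol and libraries made with a NEBNext Ultra kit. The 232 rows with no gene name held 0.130 to 0.250% of a library's counts and were left out.

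Each column was tied to its sample by the library name that the description gives, and groups follow the genotype label. From the counts, edgeR 4.0.16 (R 4.3.3; TMM, filterByExpr with a minimum count of 10, robust quasi-likelihood test, two-sided, Benjamini-Hochberg) compared the 3 knockout-labelled with the 3 WT libraries. A gene with an adjusted p below 0.05 was called. CPM are TMM-scaled, and intervals are 95%. The steps were tested on simulated data. DESeq2 1.42.0, limma voom 3.58.1, other scalings and filters, a 1.5-fold minimum, a replicate block and fits without each single library were alternatives. Tables and plots used Python 3.11.15 with pandas 2.3.3.

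The lincRNAs, the lists of RNA roles and RNA handling, and the tests were chosen with earlier results of these data known. Named are the 10 largest rises and falls among called lincRNAs with no overlap between groups, the 5 most abundant in CPM and per kilobase, those in a role list, those at the 500-count limit, nearest coding genes of the rises and falls, the called genes of smallest p in each RNA handling list, and FXYD3. Other genes named, among them further neighbour pairs, were chosen after their values were seen. Some genes and lists are not reported here.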

Additional observations from a re-analysis of the deposited data

How the results depend on the processing

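Of the 48 called lincRNAs, 29 held their call in all 16 alternative fits that test for a difference of any size. Another 19 lost it in at least 1, and 0 reversed. DESeq2 shared 39 of the calls and limma voom 44. The fit against a minimum change is not among the 16 and is given apart. Tested against a minimum change of 1.5-fold, 6 lincRNAs were higher and 3 lower, 4 RNA role genes higher and 2 lower (17 and 5 in the reported fit), 0 RNA handling genes either way (2 and 8), and 2 neighbour pairs in the same and 0 in opposite directions (7 and 2). RNA handling genes called lower numbered 5 with DESeq2, total counts or upper quartile. Neighbour pairs in the same direction numbered 4 with DESeq2, and those in opposite directions 1 with DESeq2, total counts, upper quartile, TMM from protein-coding rows or no filter. With the replicate number as a block, 29 lincRNAs were higher and 11 lower (40 of the 48 calls shared). That block gave 0 RNA handling genes higher and 3 lower, and 4 neighbour pairs in the same and 1 in opposite directions. Same-numbered libraries did not visibly deviate together (correlations 0.02, -0.08 and -0.10). With so few libraries, these correlations cannot show whether the numbers mark a shared culture or batch. Without the most abundant lincRNA the share of counts was 0.301% in the knockout-labelled group and 0.238% in WT. Chosen after seeing the data, lincRNAs with no shared exon gave 17 rises, and those with at least 250 counts in each group 9 falls. Leaving out 1 library gave 25 to 36 lincRNAs higher and 11 to 16 lower, 11 to 17 RNA role genes higher and 4 to 6 lower, 0 to 5 RNA handling genes higher and 3 to 10 lower, and 2 to 11 neighbour pairs in the same and 1 to 2 in opposite directions. Log2 fold changes that changed sign, all of genes not called, were MIR4435-2HG with no filter (-0.000691) and, over the fits that leave out 1 library, MIR4435-2HG (-0.0684 to 0.109), SNHG19 (-0.152 to 0.311), PVT1 (-0.158 to 0.0115), LINC01234 (-0.0157 to 0.159) and NFAM1 (-0.106 to 0.349). The cause of these changes was not tested.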

Other observations

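Below the 500-count limit, 506 further lincRNAs were tested, of which 63 were higher and 28 lower by edgeR (18.0%). The role lists held genes outside the 134 with larger changes, given here as counts. CRNDE had 0, 0 and 1 counts in the knockout-labelled libraries, against 24, 18 and 21 in WT. LINC00665 had 3, 9 and 5 counts in the knockout-labelled libraries, against 112, 123 and 84 in WT (log2 fold change -4.22, edgeR adjusted p = 2.6e-11). MIR193BHG, a microRNA host, had 49, 76 and 64 counts in the knockout-labelled libraries, against 12, 15 and 6 in WT (log2 fold change 2.49, edgeR adjusted p = 6.62e-07). Among abundant non-lincRNA hosts, DANCR averaged 162 ± 8.06 CPM in the knockout-labelled libraries and 127 ± 9.18 CPM in WT (log2 fold change 0.35, edgeR adjusted p = 7.92e-05).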
